A study of Oryctolagus cuniculus with 15 samples.

Results

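The comparison set low-density 3D culture against a collagen-coated dish in rabbit corneal keratocytes (NRKs), the cells that build and maintain the corneal stroma. Its members were all genes of the deposited count table in the 3 libraries of 3DF_50 and the 3 digested libraries of 2DC, which are 6 of the 15 libraries of the study. In 3DF_50, first-passage NRKs from New Zealand white rabbits were embedded in bovine fibrillar type I collagen with 50000 cells per matrix. In 2DC, the same kind of cells sat on a glass-bottom dish that carried a coat of monomeric type I collagen, plated at 50000 cells per mL. The paper states that the effective cell density was lower in 3D and that cells in 2D had more contacts with each other. Both groups were kept for 6 days in serum-free medium that was replaced on days 2 and 5, so no group received serum or an added growth factor. Before lysis both groups were incubated in a collagenase-containing digestion medium, 2DC in the dish and 3DF_50 after the matrices had been lifted out, and the 3DF_50 cells were then pelleted and rinsed. Several dishes or matrices were pooled for each library, and the 3 libraries of a group are separate experiments. For values beside the main comparison, 3DF held 100000 cells per matrix, and 2DC_L was 2DC lysed in the dish without the digestion medium.

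Corneal keratocytes in the healthy stroma are quiescent, stellate cells that lie between collagen lamellae and secrete keratan sulfate proteoglycans such as keratocan and lumican. After injury they can leave this state, divide, spread along the matrix and become fibroblasts or contractile myofibroblasts, with more fibronectin, tenascin-C and actin stress fibers. On a flat, stiff surface a cell is anchored on 1 side only, whereas in a fibrillar matrix it is surrounded by fibers that it can pull on and rearrange.

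The 3DF_50 libraries held 14626982 to 16472547 counted reads and the 2DC libraries 22238236 to 31804255. The 10 most abundant genes took 12.6 to 13.8% of the reads in 3DF_50 and 22.3 to 27.8% in 2DC, of which COL1A1 alone took 1.98 to 2.23% and 6.76 to 9.23%. TMM scaling was used, and the median change of the 13402 tested genes was then 0.01 on the log2 scale. Scaling by library size alone would raise log2 fold changes by a median of 0.35 (range over genes 0.10 to 0.37). When only the 10 most abundant genes were left out of the library size, the median change was 0.15. Within a group, log2 CPM of the libraries correlated at 0.983 to 0.993 over the tested genes. The keratocyte markers DCN, LUM, KERA and OGN were among the most abundant genes of all 6 libraries, and ALDH3A1, PTGDS and KRT14 were not analysed here. One library stood apart in its epithelial genes. The summed level of 26 corneal epithelial markers was 3.91, 3.88 and 16.2 FPKM in 3DF_50 replicates 1, 2 and 3 and 2.75, 2.77 and 5.07 FPKM in 2DC, and the corneal epithelial keratin gene KRT12 was at 0, 0 and 2.13 FPKM in 3DF_50 and at 0 in every 2DC library. Of the DEGs named below, 10 lost their call without 3DF_50 replicate 3, namely COL4A2, COL13A1, MATN4, CTHRC1, CDKN1A, PCDH1, BCL2, KRT7, DLL1 and IFI44L. Over the 6 fits that each left out 1 library, 14 named DEGs were called in 3 or fewer, which were BCL2, CDKN1A, COL13A1, COL4A2, COL9A2, CTHRC1, DLL1, ID2, IFI44L, KRT7, LAPTM5, LIF, MMP9 and PCDH1. In bulk RNA, fewer cells of a type and less RNA per cell cannot be told apart. The matrix, its stiffness, the cell density and the handling cannot be told apart in this comparison. Library name prefixes are shared between the groups for E3 only, and the labels do not say what a prefix stands for. If it marks the experiment, then for the other 4 libraries the experiment cannot be told apart from these either.

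Of the 13402 genes tested, 1557 (11.6%) were differentially expressed (DEGs), which needed both an adjusted p no higher than 0.05 (edgeR's quasi-likelihood F test with Benjamini-Hochberg adjustment) and a change of 1 or more, up or down, on the log2 scale. 574 genes (4.28%) were higher in 3DF_50 and 983 (7.33%) were lower. The lower DEGs also held the larger changes. 358 genes were lower and 136 were higher by at least 2 on the log2 scale, and beyond 3 on that scale the counts were 168 and 40. The FPKM of 1521 DEGs did not overlap between the groups, against 51.7% of all tested genes, and 1070 DEGs were called in each of the 6 fits that left out 1 library. The E3 pair is the 2 of these 6 libraries that share that name prefix, and so no separate check. In it 1217 of the DEGs reached a log2 ratio of 1 in the same direction, as did 11.4% of all tested genes.

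**Figure D1:**
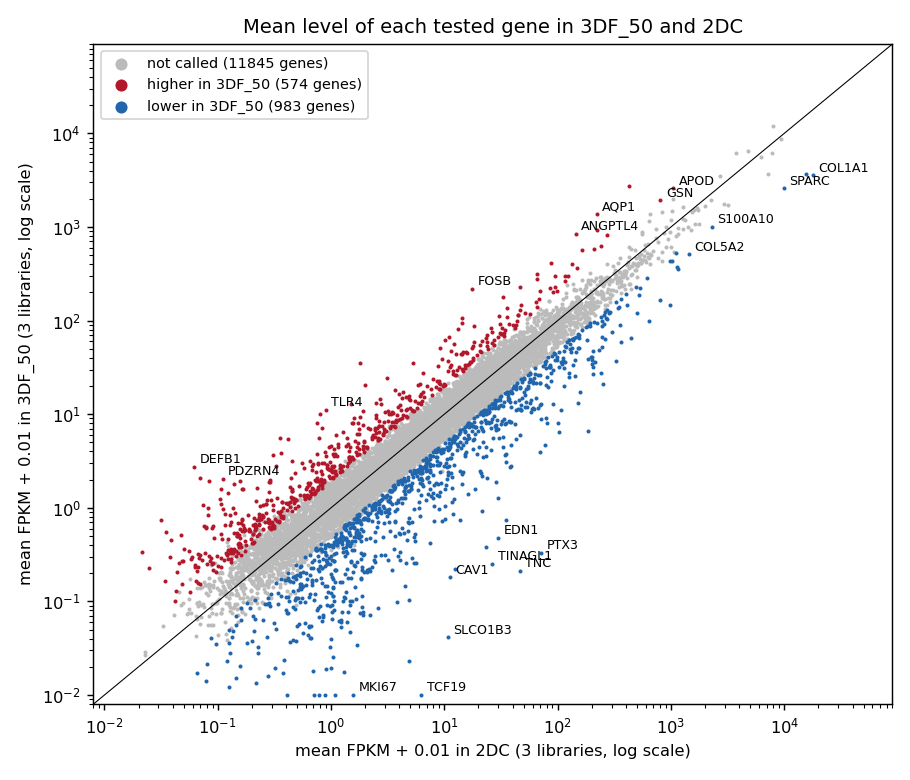
Mean FPKM of each of the 13402 tested genes in 2DC (horizontal) and 3DF_50 (vertical), 3 libraries each, on log axes with 0.01 added; the 574 higher DEGs are red, the 983 lower DEGs blue, and genes named by size or level are labelled. COL1A1, SPARC, S100A10 and COL5A2 lie below the diagonal at the high end, and MKI67 and TCF19 lie at the bottom edge because every 3DF_50 library had 0 counts.

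The genes with the largest increases were mostly low in the dish and moderate in the matrix. DEFB1, an antimicrobial defensin of epithelia, had 2.72, 1.85 and 3.60 FPKM in 3DF_50 and 0.155, 0 and 0 FPKM in 2DC, from 67 reads in all 3DF_50 libraries and 2 reads in all 2DC libraries (ratio of 2DC to 3DF_50 0.0227, 95% counting interval 0.00269 to 0.0851). The transcription factor gene ATOH8 had 2.23, 1.82 and 2.08 FPKM against 0.0541, 0.0903 and 0.0360 FPKM (log2 fold change 5.05 ± 0.35, adjusted p = 1.59e-05). TLR4, the receptor for bacterial lipopolysaccharide, was the most even of these genes, with 11.4, 10.8 and 11.1 FPKM in 3DF_50 and 0.874, 0.920 and 0.870 FPKM in 2DC (log2 fold change 3.65 ± 0.09, adjusted p = 1.27e-07). The other 7 by the same rule were PDZRN4 (4.36), DRD1, a dopamine receptor (4.04), the methyltransferase gene INMT (3.75), the exonuclease gene ISG20 (3.74), the lens crystallin gene CRYGS (3.67), FOSB (3.63) and WSCD1 (3.45), all log2 fold changes. The rule admitted only genes without overlap between the groups.

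Among abundant genes, apolipoproteins and a water channel rose. AQP1, the aquaporin that marks keratocytes in the stroma (chr10:15211381-15221822, oryCun2), was at 1172, 1612 and 1324 FPKM in 3DF_50 and 92.4, 228 and 346 FPKM in 2DC, so every 3DF_50 library lay above every 2DC library (log2 fold change 2.63 ± 0.40, adjusted p = 0.00112). APOE, which carries lipid between cells, was at 939, 702 and 1109 FPKM against 211, 246 and 212 FPKM (log2 fold change 2.04 ± 0.16, adjusted p = 3.04e-05). APOD, another lipid carrier, was at 2792, 1503 and 3433 FPKM against 1147, 1100.1 and 892 FPKM (log2 fold change 1.30 ± 0.26, adjusted p = 0.00469). GSN, which encodes the actin-severing protein gelsolin, rose from 807 to 1919 FPKM (log2 fold change 1.25 ± 0.11, adjusted p = 7.2e-05), and ANGPTL4, an inhibitor of lipoprotein lipase, rose from 144 to 849 FPKM (log2 fold change 2.56 ± 0.17, adjusted p = 1.32e-05). CRISPLD2, a secreted protein gene that glucocorticoids induce, had 100.1, 111 and 112 FPKM in 3DF_50 and 16.4, 13.1 and 13.6 FPKM in 2DC (log2 fold change 2.91 ± 0.11, adjusted p = 1.35e-06), again with no overlap.

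**Figure D2:**
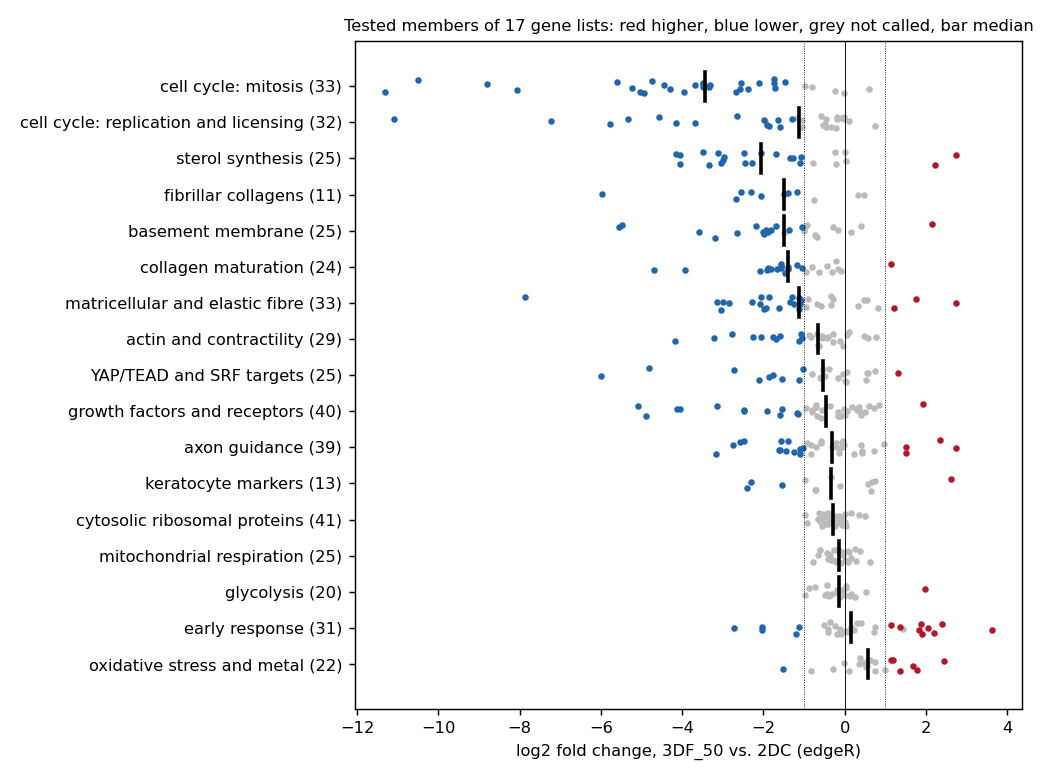
Log2 fold change of 3DF_50 vs. 2DC for each tested member of 17 gene lists (tested members in parentheses); red points are higher DEGs, blue points lower DEGs, grey points not called, black bars list medians and dotted lines a log2 fold change of 1. Mitosis, sterol synthesis and collagen lists lie to the left of 0, ribosomal protein and mitochondrial genes lie near 0 with no call, and oxidative stress genes lie to the right.

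The type I collagen genes were the most abundant transcripts of the dish and fell most in absolute level. COL1A1 (chr19:37474894-37490691) had 20929.8, 18084 and 14233 FPKM in 2DC and 3868, 3347 and 3481 FPKM in 3DF_50 (log2 fold change -2.31 ± 0.17, adjusted p = 2.65e-05). COL1A2, the partner chain, had 17353, 16426 and 12404 FPKM and 4282, 3079 and 3797 FPKM (log2 fold change -2.05 ± 0.19, adjusted p = 6.95e-05). The 2DC and 3DF_50 libraries were far apart for both chains. Type V collagen, which sets fibril diameter in the cornea, followed for each of its chains. COL5A1 fell by 1.16 and COL5A2 by 1.50 on the log2 scale, and COL5A3 was nearly lost, with 13.8, 29.8 and 26.8 FPKM in 2DC and 0.360, 0.196 and 0.546 FPKM in 3DF_50 (log2 fold change -5.98 ± 0.39, adjusted p = 1.21e-05). COL11A1, of the related type XI collagen, was at 257, 199.8 and 162 FPKM and 32.7, 31.7 and 31.9 FPKM (log2 fold change -2.68 ± 0.16, adjusted p = 8.89e-06). Of the 11 fibrillar collagen genes tested, 8 fell, 0 rose and 3 were not called (list median -1.50, against 0.01 for all tested genes). The other 2 that fell, COL2A1 (-1.40) and COL3A1 (-2.55), were below 3 FPKM in every library. COL3A1, the chain of type III collagen that appears in corneal scars, was at 1.43, 2.32 and 0.725 FPKM in 2DC and 0.449, 0.209 and 0.112 FPKM in 3DF_50.

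Basement membrane genes were mostly lower, with 14 of 25 tested members called lower and 1 higher (median -1.49). NID2, which encodes a nidogen that links laminin to type IV collagen, gave the most regular change of the list (chr17:70920218-70996320), at 34.0, 34.2 and 36.9 FPKM in 2DC and 0.618, 0.681 and 0.914 FPKM in 3DF_50 (log2 fold change -5.56 ± 0.13, adjusted p = 1.27e-07), and its homolog NID1 fell by 1.69 on the log2 scale. The type IV collagen chains differed in level. COL4A3 was at 289, 271 and 187 FPKM in 2DC and 22.0, 18.3 and 22.2 FPKM in 3DF_50 (log2 fold change -3.58 ± 0.18, adjusted p = 4.81e-06), and COL4A4, with which it assembles, was at 181, 176 and 115 FPKM and 18.7, 14.1 and 19.1 FPKM (log2 fold change -3.18 ± 0.20, adjusted p = 1.08e-05). The chains of most vessel and epithelial basement membranes, COL4A1 (-1.37) and COL4A2 (-1.06), also fell but stayed under 3 FPKM in every library. HSPG2, the gene of perlecan, fell from 53.2 to 11.8 FPKM (log2 fold change -2.17 ± 0.14, adjusted p = 1.32e-05), LAMA2 fell by 2.66 and LAMB1 by 1.93 on the log2 scale, and COL8A1 and COL8A2, the type VIII collagen chains of Descemet's membrane, fell by 1.88 and 2.02. COL15A1 kept 2 reads over the 3DF_50 libraries against 132 in 2DC (ratio 50.1, 95% counting interval 13.6 to 418). The exception was LAMC3, a laminin gamma chain gene, at 0.728, 0.457 and 0.847 FPKM in 3DF_50 and 0.149, 0.0664 and 0.238 FPKM in 2DC (log2 fold change 2.15 ± 0.45, adjusted p = 0.00563). COL7A1, the anchoring fibril collagen, had a log2 fold change of -0.97 ± 0.19 and missed the fold limit. The secreted basement membrane protein gene TINAGL1, outside this list, was at 20.1, 29.1 and 30.2 FPKM in 2DC and 0.0255, 0.267 and 0.434 FPKM in 3DF_50 (log2 fold change -6.72 ± 0.37, adjusted p = 6.46e-06).

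Of 11 other collagen genes tested, 6 fell and 0 rose (median -1.32). COL14A1 and COL12A1, collagens on the surface of fibrils, fell by 2.76 and 1.58 on the log2 scale, from 442 to 65.1 FPKM and from 1129.7 to 378 FPKM. COL9A3 fell by 2.67, COL9A2 by 1.72 and COL13A1 by 2.08, all from low levels, and COL13A1 was called in 2 of the 6 fits without a library. COL23A1, a transmembrane collagen, had 0.591, 0.843 and 1.26 FPKM in 3DF_50 and 0.532, 0.636 and 0.986 FPKM in 2DC, which overlapped (log2 fold change 0.33 ± 0.35, adjusted p = 0.49). COL17A1, the hemidesmosome collagen of epithelium, did not pass the filter on low counts.

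The enzymes that fold, process and crosslink collagen were mostly lower too, 15 of 24 tested members being lower and 1 higher (median -1.39). Among the prolyl hydroxylases, P4HA1 had 91.9, 102 and 105 FPKM in 2DC and 37.7, 38.6 and 37.3 FPKM in 3DF_50 (log2 fold change -1.39 ± 0.08, adjusted p = 7.42e-06), P4HA2 fell by 1.66 and P4HA3 by 4.70 on the log2 scale. The lysyl oxidases start the crosslinks between collagen molecules. LOX was at 499, 532 and 477 FPKM in 2DC and 81.8, 169 and 108 FPKM in 3DF_50 (log2 fold change -2.07 ± 0.23, adjusted p = 0.000225), and LOXL4 was at 15.6, 20.9 and 49.9 FPKM and 1.64, 2.35 and 1.62 FPKM (log2 fold change -3.94 ± 0.43, adjusted p = 0.000195), LOXL2 fell by 1.91, and LOXL1 and LOXL3 were not called. The chaperone gene FKBP10 fell by 1.88, and PCOLCE, the enhancer of procollagen C-proteinase, by 1.47. Of the procollagen N-proteinases, ADAMTS2 (-1.57) and ADAMTS14 (-1.82) fell and ADAMTS3 rose, from 3.75 to 8.26 FPKM (log2 fold change 1.14 ± 0.12, adjusted p = 0.000122).

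**Figure D3:**
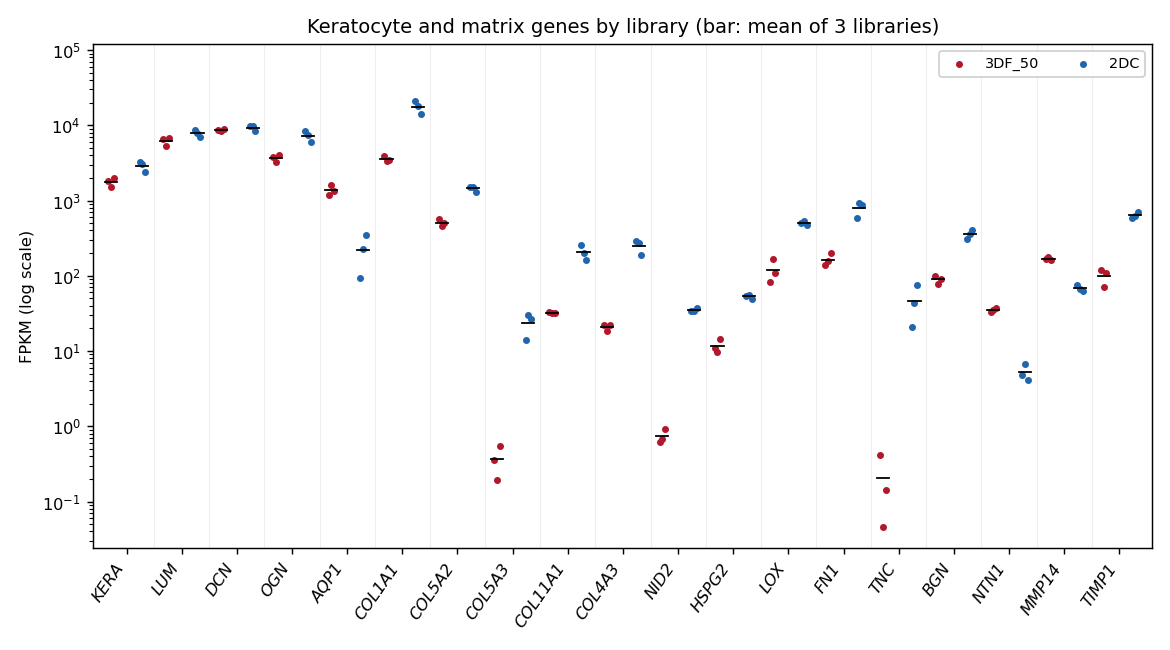
FPKM (log axis) of keratocyte and matrix genes in each of the 3 libraries of 3DF_50 (red) and 2DC (blue), with the mean as a bar. DCN and LUM overlap or nearly meet between the groups, COL5A3, NID2 and TNC are lower in 3DF_50 by the widest margins, and AQP1, NTN1 and MMP14 are higher.

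Matricellular and elastic fiber genes were mostly lower, 19 of 33 tested members falling and 3 rising (median -1.12; 13 and 4 with library size alone). TNC, the gene of tenascin-C, which appears in healing stroma, was at 20.7, 43.4 and 75.2 FPKM in 2DC and 0.421, 0.0459 and 0.142 FPKM in 3DF_50 (log2 fold change -7.86 ± 0.68, adjusted p = 5.01e-05). FN1, the fibronectin gene, was at 581, 923 and 875 FPKM and 139, 155 and 199 FPKM (log2 fold change -2.27 ± 0.21, adjusted p = 7.11e-05). The FN1 libraries did not overlap between the groups, and TNC, which was chosen among genes without overlap, varied among libraries of each group. SPARC, the collagen-binding glycoprotein, fell from 9954 to 2585 FPKM (log2 fold change -1.94 ± 0.18, adjusted p = 6.81e-05). The small proteoglycan genes BGN and ASPN fell by 1.99 and 3.15 on the log2 scale, the fibrillin genes FBN1 and FBN2 by 1.35 and 3.04, and POSTN, VCAN and TGFBI by 2.99, 1.86 and 2.06. THBS1 fell by 1.24, whereas THBS2 had a log2 fold change of 0.48 ± 0.10, under the fold limit, and SPON1 was not called (log2 fold change -0.33 ± 0.25).

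The 3 members that rose were secreted proteins of other kinds. NTN1, which encodes the guidance cue netrin-1 (chr19:10173170-10368240), had 32.5, 35.1 and 37.1 FPKM in 3DF_50 and 4.83, 6.83 and 4.17 FPKM in 2DC (log2 fold change 2.73 ± 0.16, adjusted p = 8.02e-06). MATN4, a matrilin, had 45.3, 35.1 and 62.6 FPKM and 24.4, 23.2 and 13.7 FPKM (log2 fold change 1.22 ± 0.25, adjusted p = 0.00474), with an adjusted p of 0.0195 and a log2 fold change of 0.97 without 3DF_50 replicate 3. CTHRC1, a collagen triple helix repeat protein, had 3.86, 1.56 and 8.16 FPKM and 1.49, 1.15 and 1.36 FPKM (log2 fold change 1.76 ± 0.52, adjusted p = 0.0271), with its highest value in 3DF_50 replicate 3. Without that library the adjusted p of CTHRC1 was 0.11, and against 2DC_L neither MATN4 nor CTHRC1 was called.

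Of 21 integrin and related matrix receptor genes tested, 3 fell and 0 rose (median -0.45, and 1 fell and 2 rose with library size alone), a share of 14.3% against 11.6% of all tested genes. ITGA1, the alpha chain of a collagen-binding integrin, fell by 1.33 on the log2 scale, and the syndecan genes SDC1 and SDC3 fell by 2.38 and 1.09. ITGA2, of another collagen-binding integrin, and the shared beta chain ITGB1 had log2 fold changes of -0.99 ± 0.10 and -0.96 ± 0.09, just inside the fold limit. ITGA5, of the fibronectin receptor, had -0.34 ± 0.09.

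Proteases and their inhibitors were divided, 10 of 27 tested members being lower and 2 higher (median -0.38, and 7 lower and 3 higher with library size alone). MMP14, the membrane-bound collagenase that cells use to cut fibrillar collagen, was at 168, 179 and 162 FPKM in 3DF_50 and 76.5, 66.6 and 62.8 FPKM in 2DC (log2 fold change 1.31 ± 0.10, adjusted p = 2.63e-05). TIMP1, an inhibitor of matrix metalloproteinases, was at 118, 70.7 and 108 FPKM and 579, 627 and 709 FPKM (log2 fold change -2.69 ± 0.18, adjusted p = 1.57e-05), and TIMP3 fell by 1.24 on the log2 scale. MMP2, the gelatinase that MMP14 activates, had 1414, 1660.4 and 1206 FPKM against 838, 811 and 846 FPKM, with no overlap but a log2 fold change of 0.78 ± 0.13, below the limit. MMP16, another membrane-bound member, fell by 3.81, MMP19 by 3.22, MMP9 by 2.05, the aggrecanase gene ADAMTS5 by 2.98 and ADAM12, a disintegrin of spreading mesenchymal cells, by 2.90. The call of MMP9 was lost without 3DF_50 replicate 1, 3DF_50 replicate 2 or 2DC replicate 3 and with the name prefix as a block, and that of TIMP3 without 2DC replicate 3.

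Of 29 tested genes of stress fibers and contractility 11 fell, 0 rose and 18 were not called (median -0.66), and with library size alone 8 fell and 1 rose (median -0.31). ACTB was at 535, 553 and 511 FPKM in 3DF_50 and 1034, 1126 and 1164 FPKM in 2DC (log2 fold change -1.05 ± 0.10, adjusted p = 6.92e-05). MYL9, the regulatory light chain of non-muscle and smooth muscle myosin, was at 3.17, 3.29 and 4.68 FPKM and 22.2, 39.0 and 43.1 FPKM (log2 fold change -3.21 ± 0.27, adjusted p = 4.63e-05). VIM, the intermediate filament gene of mesenchymal cells, was at 324, 315 and 440.2 FPKM and 854, 1205 and 1402 FPKM (log2 fold change -1.68 ± 0.20, adjusted p = 0.000301). TPM2 fell by 1.75 and the actin crosslinker LIMA1 by 2.25 on the log2 scale, while FLNC had -0.88 ± 0.14 and missed the limit. Of 9 tested myofibroblast markers 6 fell and 0 rose (median -2.68). TAGLN was at 0.294, 0.0933 and 0.352 FPKM and 3.80, 5.23 and 4.65 FPKM (log2 fold change -4.17 ± 0.39, adjusted p = 7.54e-05), and ACTA2, the alpha smooth muscle actin gene, at 0.128, 0.163 and 0.268 FPKM and 0.873, 1.88 and 1.19 FPKM (log2 fold change -2.77 ± 0.46, adjusted p = 0.00182). LRRC15, a marker of activated fibroblasts, fell by 3.31. The marker genes ACTA2 and TAGLN were at low levels in the dish too. The marker list shares ACTA2, TAGLN and LMOD1 with the contractility list and COL11A1 and POSTN with the matrix lists above. Its median is the value of COL11A1, so its count largely repeats genes already given. Against 2DC_L the log2 fold change of ACTB was -0.49, so its call was lost with that control, whereas TAGLN (-4.03) and MYL9 (-3.46) stayed below -3.

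The list of YAP/TEAD and SRF, the factors that read cell spreading and actin state, gave 9 lower and 1 higher of 25 tested (median -0.54, and 7 lower and 2 higher with library size alone). It holds targets of these factors and also factor genes such as YAP1, TEAD1 and TEAD4, so its count is not one of targets only. CTGF, a canonical YAP target (chr12:122183019-122186016), was at 5.80, 6.81 and 6.99 FPKM in 3DF_50 and 104, 170.0 and 281 FPKM in 2DC (log2 fold change -4.82 ± 0.35, adjusted p = 2.17e-05). EDN1, the gene of the peptide endothelin-1 (chr12:6011333-6037477), was at 0.734, 0.349 and 0.329 FPKM and 28.5, 29.3 and 31.5 FPKM (log2 fold change -5.99 ± 0.20, adjusted p = 9.85e-07). AMOTL2 and AJUBA fell by 2.11 and 1.87, and the factor genes TEAD1 and TEAD4 by 1.12 and 1.76 on the log2 scale, while YAP1 itself had 0.05 ± 0.09. CYR61 depended on the control. It was at 152, 177 and 116 FPKM in 3DF_50, 941, 1024 and 972 FPKM in 2DC and 89.6, 103 and 114 FPKM in 2DC_L, so its log2 fold change was -2.72 against 2DC and 0.54 against 2DC_L. F3, which encodes tissue factor, was the member that rose (log2 fold change 1.31 ± 0.30, adjusted p = 0.00859). CAV1, the scaffold protein gene of caveolae, was outside the list and was at 0.162, 0.0961 and 0.254 FPKM in 3DF_50 and 4.37, 8.41 and 20.6 FPKM in 2DC (log2 fold change -5.99 ± 0.71, adjusted p = 0.000294). S100A10, whose protein binds annexin A2 at the membrane, fell from 2293 to 996 FPKM (log2 fold change -1.20 ± 0.08, adjusted p = 1.22e-05).

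Genes of cell division were among the largest falls of the comparison. Of 33 tested genes of the mitosis list 28 fell and 0 rose (median -3.43), and of 32 tested genes of DNA replication and licensing 14 fell and 0 rose (median -1.11). The mitosis list also holds cyclin E and E2F genes, which act at entry into S phase and are among its lower calls. Both medians stayed the same with genes at 0 reads set to the bound that the floor allows. MKI67, the proliferation marker, had 0 reads in every 3DF_50 library and 0.199, 1.09 and 3.36 FPKM in 2DC, at least 91.9-fold lower with 3 reads per library as the floor (edgeR adjusted p = 0.00672). TCF19, a gene of the transition into S phase, also had 0 reads in 3DF_50 and 1.15, 5.79 and 11.8 FPKM in 2DC, at least 79.0-fold lower (adjusted p = 0.00343). CDK1, the kinase that drives entry into mitosis, kept 1 read over the 3DF_50 libraries against 425 in 2DC (ratio 323, 95% counting interval 57.6 to 12771). CLSPN, of the replication checkpoint, kept 2 reads against 422 (ratio 160.2, interval 44.1 to 1327). The PCNA-associated factor gene KIAA0101 fell by 5.34 on the log2 scale. CENPF and E2F8 were without reads in 3DF_50, at least 52.3-fold and 16.2-fold lower.

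The spread in these genes lay mostly in the dish. TOP2A, the topoisomerase of dividing cells, was even in 3DF_50 at 0.283, 0.315 and 0.297 FPKM but was at 0.831, 3.09 and 7.70 FPKM in 2DC replicates 1, 2 and 3 (log2 fold change -3.68 ± 0.73, adjusted p = 0.00445). RRM2, a subunit of ribonucleotide reductase, was at 1.06, 0.837 and 0.813 FPKM and 4.65, 17.3 and 42.2 FPKM (log2 fold change -4.56 ± 0.77, adjusted p = 0.00192), and TK1, thymidine kinase, at 0, 0.126 and 0.515 FPKM and 2.55, 10.5 and 24.4 FPKM (log2 fold change -5.77 ± 1.02, adjusted p = 0.00239). In all 3 genes 2DC replicate 1 was the lowest dish library and 2DC replicate 3 the highest, and even the lowest was above every 3DF_50 library. The whole replication list did not separate the groups in this way, as its summed level was 159.9, 165 and 153 FPKM in 3DF_50 and 138, 234 and 384 FPKM in 2DC, with 2DC replicate 1 below every 3DF_50 library. The mitosis list summed to 22.3, 24.8 and 19.0 FPKM and 32.5, 70.6 and 156 FPKM, without overlap. Factors that load the replicative helicase fell less, by 1.98 for CDT1, 1.90 for MCM5 and 1.59 for MCM3 on the log2 scale. Without 1 library in turn, 17 of the 28 mitosis calls and 10 of the 14 replication calls were kept in each of the 6 fits. PCNA, the sliding clamp, overlapped, at 26.7, 30.0 and 26.2 FPKM and 20.3, 34.8 and 58.9 FPKM (log2 fold change -0.45 ± 0.31, adjusted p = 0.282). Among 16 tested inhibitors of the cycle 1 rose and 2 fell (3 and 2 with library size alone). CDKN1A, the p21 gene, had 201, 265 and 155 FPKM in 3DF_50 and 59.5, 71.5 and 167 FPKM in 2DC, which overlapped (log2 fold change 1.06 ± 0.36, adjusted p = 0.046), and was called in only 1 of the 6 fits without a library. CDKN2C and GADD45G fell by 2.59 and 2.47, and GADD45G was not called against 2DC_L.

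Sterol synthesis was the other pathway with broad decreases, 18 of 25 tested members being lower and 2 higher (median -2.05). Cells make cholesterol from acetyl-CoA through mevalonate, and SREBP2 (SREBF2) raises the genes of this route when sterol in the endoplasmic reticulum is low. At the start of the route HMGCS1 was at 4.48, 4.57 and 5.00 FPKM in 3DF_50 and 26.1, 35.1 and 54.6 FPKM in 2DC (log2 fold change -3.04 ± 0.25, adjusted p = 3.66e-05). In the later steps SQLE, MSMO1 and FDPS fell by 3.49, 3.33 and 2.97 on the log2 scale. TM7SF2, a sterol reductase, changed most, from 53.2, 75.8 and 82.0 FPKM in 2DC to 2.98, 5.34 and 3.54 FPKM in 3DF_50 (log2 fold change -4.15 ± 0.23, adjusted p = 6.74e-06). STARD4, a carrier of sterol inside the cell, fell by 4.05, INSIG1 by 3.12 and SREBF2 itself by 1.34. The 2 members that rose are exporters of cholesterol to lipoproteins. ABCA1 (chr1:8128430-8265889) had 83.8, 104 and 97.8 FPKM in 3DF_50 and 14.8, 13.9 and 14.4 FPKM in 2DC (log2 fold change 2.73 ± 0.11, adjusted p = 1.69e-06), and ABCG1 rose by 2.22. The groups overlapped for none of the genes named here, which were chosen among DEGs, and 1521 of all 1557 DEGs did not overlap either. All 20 calls of the list but 2, FDFT1 and SC5D, were kept in each of the 6 fits without a library, as were 1070 of all 1557 DEGs. Against 2DC_L 18 members were again lower and 2 higher.

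**Figure D4:**
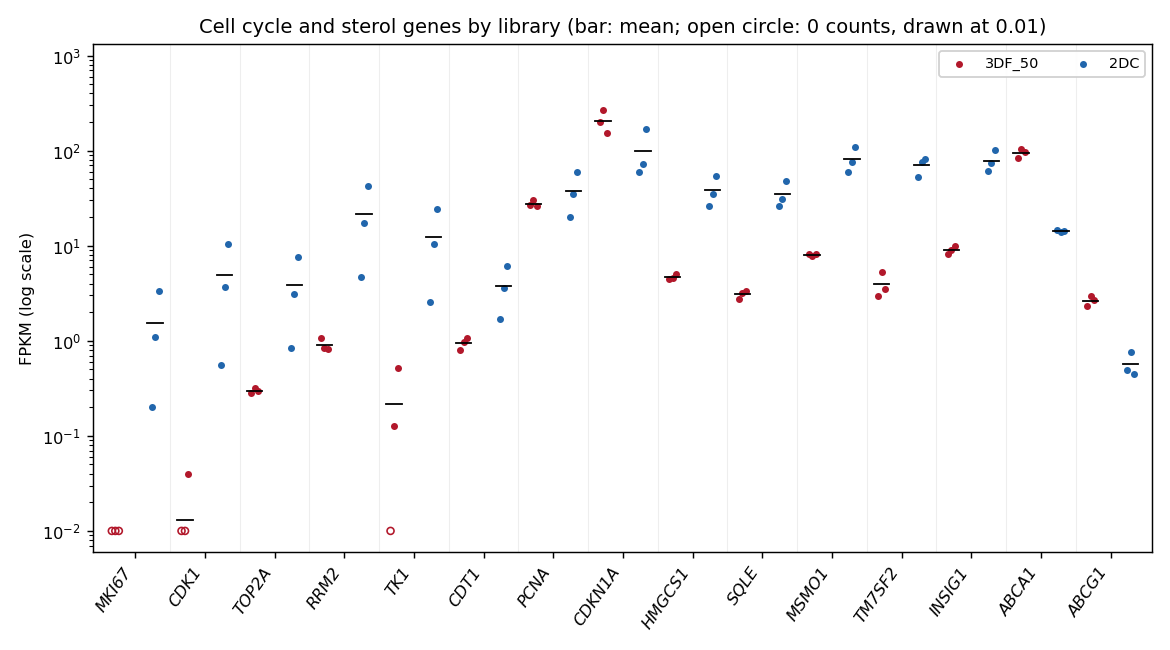
FPKM (log axis) of cell cycle and sterol genes in each library of 3DF_50 (red) and 2DC (blue), with the mean as a bar; open circles drawn at 0.01 are libraries with 0 counts. The 2DC libraries spread widely for MKI67, CDK1, TOP2A, RRM2 and TK1, 3DF_50 is lower for every sterol synthesis gene plotted, and ABCA1 and ABCG1 are higher.

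Of 13 tested markers of the keratocyte itself 3 fell and 1 rose, a share of 30.8% against 11.6% of all tested genes. In edgeR 12 members had an unadjusted p under 0.05, as did 6308 of all 13402 tested genes. The list median of -0.33 became 0.02 with library size alone, where 3 fell and 3 rose. KERA, the keratocan gene (chr4:70262575-70269568), was at 1820.0, 1507 and 1966 FPKM in 3DF_50 and 3296, 3070.1 and 2359 FPKM in 2DC, without overlap, but its log2 fold change of -0.72 ± 0.16 was within the fold limit (adjusted p = 0.00674). LUM, the lumican gene (chr4:70315437-70323221), was at 6555, 5272 and 6820.1 FPKM and 8616, 7812 and 7029 FPKM (log2 fold change -0.33 ± 0.14, adjusted p = 0.099). DCN, the decorin gene, was at 8632, 8348 and 9065 FPKM and 9789.8, 9658 and 8518 FPKM, which overlapped (log2 fold change -0.10 ± 0.12, adjusted p = 0.538). Neither passed the test, and their log2 fold changes turned to 0.02 and 0.25 with library size alone. OGN had a log2 fold change of -0.97 ± 0.16, just inside the limit. The cytosolic enzyme genes known as corneal crystallins were higher in each 3DF_50 library without reaching the limit, ALDH1A1 with 0.64 ± 0.11 and TKT with 0.58 ± 0.09. Beside AQP1, the called members were the fibromodulin gene FMOD, at 43.1, 29.1 and 51.3 FPKM and 240.2, 224 and 142 FPKM (log2 fold change -2.29 ± 0.24, adjusted p = 0.000156), the bicarbonate cotransporter gene SLC4A4, which also stands in the endothelial list (-2.40), and NT5E, the gene of CD73 (-1.54). Cytosolic ribosomal protein genes, with 41 tested, gave no call in either direction (edgeR, 18 members at an unadjusted p under 0.05), and their median of -0.30 became 0.06 with library size alone. The same held for 25 mitochondrial respiration genes (median -0.13, 12 members at an unadjusted p under 0.05), and of 20 glycolysis genes only ENO2 rose (log2 fold change 1.97 ± 0.18, adjusted p = 6.4e-05). The shares of ribosomal and mitochondrial genes at such a p were near that of all tested genes, 6308 of 13402.

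Of 22 tested genes of the oxidative stress response 6 rose and 1 fell (median 0.58). SRXN1, the sulfiredoxin gene and a target of the factor NRF2 (chr4:8229622-8232717), was at 186, 189 and 159.7 FPKM in 3DF_50 and 27.5, 24.5 and 47.0 FPKM in 2DC (log2 fold change 2.44 ± 0.22, adjusted p = 6.65e-05). NQO1, a quinone reductase, was at 632, 559.6 and 504 FPKM and 148, 143 and 199 FPKM (log2 fold change 1.79 ± 0.15, adjusted p = 3.87e-05). GCLC, which starts glutathione synthesis, rose by 1.68 on the log2 scale, TXNRD1 by 1.15, GPX1 by 1.36 and catalase (CAT) by 1.18. HMOX1, another NRF2 target, overlapped between the groups (log2 fold change 0.39 ± 0.20, adjusted p = 0.155). SOD3, the extracellular superoxide dismutase, fell by 1.50. SQSTM1, the autophagy receptor gene that NRF2 also induces, was at 575, 632 and 517 FPKM and 198, 202 and 231 FPKM (log2 fold change 1.45 ± 0.11, adjusted p = 2.78e-05). VEGFA rose by 1.92, STC2, a secreted stanniocalcin, fell by 3.05, and 16 of the 20 tested hypoxia-responsive genes were not called, while 2 rose and 2 fell (7 and 2 with library size alone).

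Early response genes, which cells switch on within minutes of a stimulus, gave 9 higher and 5 lower of 31 tested (median 0.16, and 11 higher and 3 lower with library size alone). FOSB was at 179, 239.5 and 237 FPKM in 3DF_50 and 18.5, 19.5 and 15.1 FPKM in 2DC (log2 fold change 3.63 ± 0.15, adjusted p = 1.76e-06), and FOS at 540.5, 648 and 671 FPKM and 237, 275 and 214 FPKM (log2 fold change 1.36 ± 0.13, adjusted p = 8.6e-05). KLF4, a factor of quiescent cells, rose by 1.88 on the log2 scale, the stress factor ATF3 by 2.21, KLF10 by 2.05, NR4A2 by 1.90, FOSL2 by 1.15, and the feedback genes DUSP6 and SOCS3 by 2.41 and 1.82. DUSP2 fell by 2.02, RHOB by 2.04, EGR3 by 1.20 and SGK1 by 1.13, of which RHOB and SGK1 were not called against 2DC_L. EGR1 overlapped, at 670.2, 689.8 and 626 FPKM in 3DF_50 and 633, 664 and 573 FPKM in 2DC (log2 fold change 0.09 ± 0.10, adjusted p = 0.531), and JUN did so too (log2 fold change 0.39 ± 0.18, adjusted p = 0.11). The digestion step moved with these genes. In 2DC_L, lysed without it, FOS was at 0.311, 0.251 and 0.343 FPKM, EGR1 at 2.42, 2.17 and 3.17 FPKM and FOSB at 0.696, 0.699 and 0.397 FPKM. Against 2DC_L 25 members were higher and 0 lower, where 5.05% of all genes tested were called higher and 8.47% lower, and DUSP2 and EGR3 were then higher in 3DF_50 (log2 fold changes 5.29 and 3.58). Handling after digestion also differed between 3DF_50 and 2DC, and its part in the early response genes was not tested. PIM1, a kinase gene of early responses, had a log2 fold change of 0.98 ± 0.14 against 2DC.

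**Figure D5:**
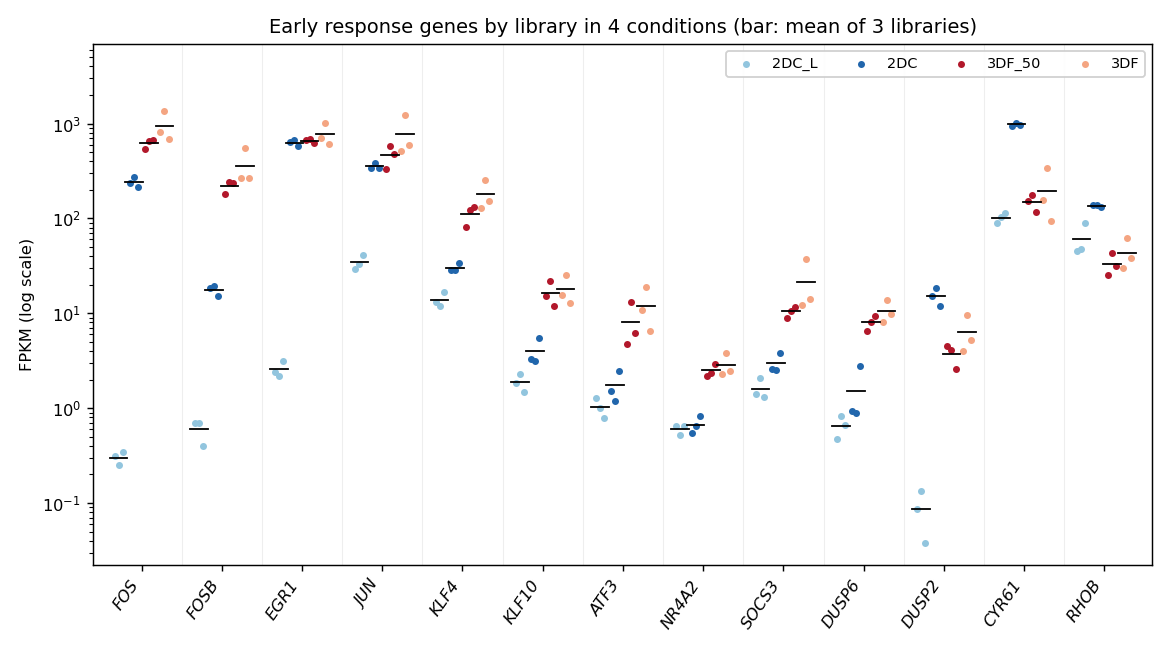
FPKM (log axis) of 13 early response genes in each library of 2DC_L, 2DC, 3DF_50 and 3DF, with the mean as a bar. FOS, FOSB, EGR1, JUN and DUSP2 are lowest in 2DC_L, which had no digestion step, and CYR61 is highest in 2DC.

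Secreted growth factors were lower in the matrix more often than higher. Of 40 tested growth factor and receptor genes 12 fell and 1, VEGFA, rose (median -0.46, and 10 fell and 3 rose with library size alone). FGF1 was at 0.105, 0.0125 and 0.106 FPKM in 3DF_50 and 2.40, 2.32 and 2.99 FPKM in 2DC (log2 fold change -5.08 ± 0.39, adjusted p = 2.83e-05), and PDGFB, which attracts and stimulates fibroblasts, at 0.0398, 0.151 and 0.0536 FPKM and 1.97, 1.42 and 0.952 FPKM (log2 fold change -4.12 ± 0.49, adjusted p = 0.000296). FGF9, NRG1 and IGF1 fell by 4.06, 4.89 and 3.15 on the log2 scale. In the TGF-beta and BMP list 6 of 30 tested members rose and 5 fell (median 0.07, and 10 rose and 3 fell with library size alone). TGFB2 was at 20.4, 17.3 and 20.1 FPKM in 3DF_50 and 56.3, 60.3 and 49.1 FPKM in 2DC (log2 fold change -1.52 ± 0.10, adjusted p = 1.47e-05), the co-receptor ENG fell by 1.41 and BMP3 by 1.96. The members that rose included the ligands INHBB (2.82) and GDF5 (1.97) and the BMP target genes ID1 (1.17), ID2 (1.57) and ID3 (1.71), of which ID2 was called in 2 of the 6 fits without a library. PTX3, a secreted pentraxin of innate immunity, was at 0.357, 0.235 and 0.370 FPKM and 17.4, 40.3 and 156 FPKM (log2 fold change -7.78 ± 1.01, adjusted p = 0.000485), and the transporter gene SLCO1B3 at 0.0938, 0 and 0 FPKM and 2.92, 10.4 and 18.9 FPKM (log2 fold change -8.38 ± 1.07, adjusted p = 0.000427). For both genes, chosen among those without overlap, the dish libraries differed several-fold among themselves.

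Cell adhesion and junction genes changed in both directions, 8 of 25 tested falling and 2 rising (median -0.62). The cadherin gene CDH8 was at 2.99, 2.41 and 3.06 FPKM in 3DF_50 and 32.5, 43.1 and 40.3 FPKM in 2DC (log2 fold change -3.77 ± 0.14, adjusted p = 1.35e-06), and NCAM1, a neural adhesion molecule, fell by 3.52 on the log2 scale. CDH11, the cadherin of mesenchymal cells, fell by 1.13, CDH13 by 3.57 and CDH20 by 1.67. The connexin gene GJB5 fell by 2.39. The 2 members that rose were protocadherins, PCDH18 (log2 fold change 1.25 ± 0.13, adjusted p = 0.000133) and PCDH1, with 3.81, 1.12 and 2.80 FPKM and 0.967, 1.42 and 0.453 FPKM, which overlapped (log2 fold change 1.44 ± 0.46, adjusted p = 0.037). PCDH1 was called in 2 of the 6 fits without a library. Protocadherins did not all rise. PCDH7 was called lower (log2 fold change -2.47), and the other protocadherins tested in this list were not called. CDH5 had 0.61 ± 0.18, below the fold limit. Among other genes of shape and survival TIAM1, an activator of the GTPase Rac, was at 13.9, 15.7 and 15.7 FPKM and 4.15, 5.13 and 4.55 FPKM (log2 fold change 1.71 ± 0.10, adjusted p = 7.42e-06), TUBA4A, an alpha tubulin gene, rose by 1.79, BCL2, which blocks apoptosis, by 1.04, and MYLIP had 0.61 ± 0.16, below the limit. The call of BCL2 was lost without 3DF_50 replicate 1 or 3 and without 2DC replicate 1 or 2.

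The same genes at the higher density, and against the undigested dish, are given side by side, since these comparisons share libraries. In 3DF vs. 2DC 7.56% of the tested genes were called, and in 3DF_50 vs. 2DC_L 13.5%. KERA had a log2 fold change of 0.19 in 3DF vs. 2DC and -0.71 in 3DF_50 vs. 2DC_L. COL1A1 had -1.49 and -2.33, TNC -6.88 and -7.91, and CTGF -4.32 and -4.42, in the same order. AQP1 had 1.47 and 2.38, and it was called in the second only. TLR4 had 3.91 and 3.75, TM7SF2 -4.97 and -4.67, and SRXN1 1.53 and 2.73.

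Between the densities themselves, 3DF_50 vs. 3DF, 0.452% of the tested genes were called, which was 60 genes. Without 3DF_50 replicate 1, and likewise without 3DF_50 replicate 2, 0 genes were called over the whole table. Leaving out 3DF replicate 3 gave 4 calls, and the other fits without a library gave 61 to 77. The calls of genes named here were thus lost together with all others. AQP1 was at 445, 791 and 613 FPKM in 3DF, between 2DC and 3DF_50 (log2 fold change 1.18 ± 0.22, adjusted p = 0.0566 for 3DF_50 vs. 3DF). KERA was at 4555, 2756 and 2706 FPKM in 3DF (log2 fold change -0.89 ± 0.23, adjusted p = 0.102), LUM at 12432, 9326 and 9175 FPKM (log2 fold change -0.70 ± 0.20, adjusted p = 0.117) and COL1A1 at 6092, 5733 and 7304 FPKM (log2 fold change -0.81 ± 0.18, adjusted p = 0.0824). None of these 4 passed the test. NID1, at 83.7, 62.8 and 65.2 FPKM in 3DF, was called lower in 3DF_50 (log2 fold change -1.12 ± 0.17, adjusted p = 0.0317), but its adjusted p was 0.162 without 3DF_50 replicate 2. ADAMTS5, at 18.9, 12.7 and 13.4 FPKM in 3DF (log2 fold change -1.43 ± 0.23, adjusted p = 0.0361), and ISG20, at 0.544, 0.312 and 0.373 FPKM (log2 fold change 2.14 ± 0.30, adjusted p = 0.0317), gave 0.212 and 0.15 without it.

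Markers of other cell types were summed over each list. The summed FPKM of 15 blood vessel markers was 151, 127 and 137 in 3DF_50 and 143, 123 and 101 in 2DC, with EMCN higher (1.50) and TIE1 lower (-2.95) of 7 tested, and PECAM1 had 0 reads in every 3DF_50 library. The 17 leukocyte markers summed to 6.39, 5.62 and 6.92 FPKM and 4.87, 6.75 and 10.2 FPKM, with CD8A higher (2.95) and LAPTM5 lower (-1.47) of 5 tested. The 16 Schwann cell and melanocyte markers summed to 35.5, 31.6 and 39.4 FPKM and 60.7, 64.3 and 67.0 FPKM, with 2 of 11 lower, PMP22 and PMEL, and 0 higher (2 and 2 with library size alone). The 10 corneal endothelial markers summed to 328, 288 and 341 FPKM and 749, 743 and 608 FPKM, and 3 of 9 tested fell, COL8A2, SLC4A4 and ALCAM. Of the 26 epithelial markers 6 passed the filter on low counts, and KRT7 was called higher (log2 fold change 1.29 ± 0.42, adjusted p = 0.0374) in 3DF_50, where replicate 3 was the highest library at 1.81 FPKM. Without that replicate its adjusted p was 0.148. In 3DF the epithelial keratin gene KRT5 was at 3.54, 6.19 and 3.57 FPKM in every library, against 0.0135, 0.116 and 2.02 FPKM in 3DF_50. The part of other cell types in the changes above was not tested.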

How the data were processed

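Bulk RNA-seq of 6 libraries, 3 of 3DF_50 and 3 of 2DC, was compared. The authors aligned reads to oryCun2 with HISAT2 2.0.5 and counted them per gene with featureCounts, and the deposited counts are whole reads with no further normalization. The deposited FPKM values are these counts per gene length, scaled by the authors with a library size close to that of TMM. They are printed as levels only, in replicate order 1, 2 and 3. Strand use in counting was not given in the sources used here, so antisense and overlapping genes cannot be separated. The table held 23428 genes, 15408 with a symbol, and all its columns were used. Depth per library was 14626982 to 31804255 counts. Counting intervals are exact binomial and, like the floor of 3 counts per library, cover counting error only.

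The main test was edgeR's quasi-likelihood F test, two-sided and with TMM factors (edgeR 4.0.16, R 4.3.3), on genes that passed filterByExpr at a minimum of 10 counts, with both conditions in the fit. A log2 fold change is 3DF_50 over 2DC and is printed ± SE, obtained as |log2 fold change| over the root of F. p-values were adjusted over all 13402 tested genes by Benjamini-Hochberg. The test was run on simulated counts drawn from the means of these libraries, and of 200 changed genes among 13402, 92% were recovered at a log2 fold change of 2 and 96.5% at 3, each with 3 false calls. DESeq2 1.42.0 and limma 3.58.1 served as alternatives. The study used DESeq2 with the same limits. The fit of 3DF_50 vs. 3DF was added after values were seen. Replicates are separate experiments, and p-values measure the spread between them. Genes were named by fixed rules: the 10 largest changes in each direction among DEGs whose libraries did not overlap and that averaged 1 FPKM or more in the higher condition, the 5 most abundant DEGs in each direction, list members led by the 4 largest changes, and genes the study names. Lists, members and tests were chosen with earlier results of these data known. Some genes that these rules name are not reported here. Symbols are those of the table, and sequences were not used here. Python 3.11.15 made the figures.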

Additional observations from a re-analysis of the deposited data

How the results depend on the processing

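The count of 1557 DEGs (574 higher, 983 lower) became 779 (247 and 532) with limma on log2(FPKM + 1), which shrinks changes of low genes, and 5098 (2381 and 2717) with the adjusted p alone and no fold limit. Scaling by library size alone turned the balance, with 1838 DEGs, 1205 higher and 633 lower, so that 65.6% rather than 36.9% of the calls were higher. Without the 10 largest genes in the library size 742 were higher and 812 lower (47.7%). The other alternatives gave DEG counts within 1.5 times the main one, among them 1620 with DESeq2, 1380 with a mean of at least 1 CPM, 1697 with no low-count filter, 1801 with 2DC_L in place of 2DC and 1334 to 1569 without 1 library in turn (477 to 585 higher and 857 to 1042 lower). Leaving out 2DC replicate 2 gave the lowest count. Replicate numbers were not used as pairs in the main fit. Same-numbered libraries had correlations of 0.116, -0.192 and -0.0163 in their deviations from the group means. Libraries with different numbers had -0.189 to 0.189. Deviations from a mean of 3 libraries sum to 0, so these values cannot decide whether the libraries are paired. A fit with the replicate number as a block gave 1476 DEGs (528 and 948). All 5 conditions with the name prefix as a block gave 1403 (438 and 965), and 22 named DEGs lost their call there. Values could be computed for 216 of the 225 named DEGs with a mean of at least 1 CPM and for 223 to 225 under the other settings, and among them CYR61, DUSP2 and EGR3 reversed with 2DC_L in place of 2DC (0.54, 5.29 and 3.58), a control without the digestion step. Genes that were not called also changed sign, DCN to 0.25 with library size alone and 0.0354 without the 10 largest genes, LUM to 0.0239, LOXL1 to 0.15, SPON1 to 0.00936 and ITGA5 to 0.0127 with library size alone, COL23A1 to -0.41, EGR1 to -0.13 and JUN to -0.28 with the prefix block, and, over the fits without 1 library, YAP1 ranged from -0.0223 to 0.11, KRT5 from -1.82 to 2.19 and PCNA from -0.76 to 0.00882. Of the 4036 values of the named DEGs under the alternatives 3851 kept the call and 182 lost it, most with limma on log2(FPKM + 1) (40). The depth of 3DF_50 limits genes that had 0 to 3 reads there, whose changes are given as bounds or counting ratios.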

Other observations

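Genes of axon guidance, which steer growing nerves and are also used by migrating mesenchymal cells, gave 13 lower and 4 higher of 39 tested (median -0.32), and 9 lower and 5 higher with library size alone (median 0.03). The semaphorin gene SEMA3C was at 23.8, 24.4 and 28.0 FPKM in 3DF_50 and 108, 149.9 and 165 FPKM in 2DC (log2 fold change -2.47 ± 0.16, adjusted p = 1.18e-05), and SEMA3D at 3.16, 1.59 and 2.31 FPKM and 25.6, 24.8 and 12.9 FPKM (log2 fold change -3.17 ± 0.31, adjusted p = 9.62e-05). SEMA3E, PLXNC1 and ROBO1 fell by 2.75, 2.58 and 1.60 on the log2 scale. Beside NTN1, its receptor gene UNC5B (log2 fold change 1.50 ± 0.18, adjusted p = 0.000316), the semaphorin receptor gene PLXND1 (log2 fold change 1.52 ± 0.09, adjusted p = 8.7e-06) and EPHA5 (log2 fold change 2.35 ± 0.15, adjusted p = 1.03e-05) rose. In the Wnt list 6 of 31 tested members fell and 1 rose (median -0.21), and 4 fell and 3 rose with library size alone (median 0.14). DKK3, a secreted Dickkopf family member, was at 41.2, 33.1 and 29.5 FPKM and 142, 216 and 245 FPKM (log2 fold change -2.54 ± 0.21, adjusted p = 3.87e-05), and WNT2, WNT11 and WIF1 fell by 4.41, 1.93 and 1.36. Of 8 tested Notch genes 3 rose and 0 fell, among them the target gene HES1, at 9.55, 21.9 and 7.06 FPKM and 1.50, 1.41 and 1.53 FPKM (log2 fold change 3.11 ± 0.41, adjusted p = 0.000505), with NOTCH3 (1.29) and the ligand gene DLL1 (1.51). With the name prefix as a block NOTCH3 and DLL1 were not called, and DLL1 was also lost with DESeq2 and without 3DF_50 replicate 3, 2DC replicate 2 or 2DC replicate 3.

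Immune genes did not move as 1 group. Of 35 tested cytokine and complement genes 3 rose and 6 fell (median 0.05), a balance that turned to 7 and 3 with library size alone (median 0.40). The monocyte attractant gene CCL2 was at 295, 379.6 and 278 FPKM in 3DF_50 and 69.2, 59.6 and 69.5 FPKM in 2DC (log2 fold change 2.26 ± 0.13, adjusted p = 7.42e-06), while IL6 was at 0.0505, 0.0960 and 0.0906 FPKM and 0.667, 0.809 and 1.41 FPKM (log2 fold change -3.50 ± 0.55, adjusted p = 0.00129). LIF rose by 1.68 and was called in 2 of the 6 fits without a library. CD55, which restrains complement on host cells, fell by 1.63 on the log2 scale. Of 26 tested interferon-responsive genes 2 rose and 5 fell (median -0.40; 3 and 2 with library size alone, median -0.04), with ISG20 higher and USP18 lower (log2 fold change -3.42 ± 0.37, adjusted p = 0.000185), followed by IFIT3 (-1.57) and IFI44L (-1.24), which was called in 1 of the 6 fits without a library. In the glucocorticoid and retinoid list 3 of 23 rose and 3 fell (median 0.15). The retinoid genes went both ways, RBP4 (2.39) higher, and ALDH1A2, which makes retinoic acid (-2.50), and CRABP1 (-2.41) lower. Of 36 tested glycosaminoglycan synthesis genes 6 fell, led by CHST2 (-1.65), SULF1 (-1.60) and EXT2 (-1.06), and 1 rose, UGDH, which makes the uronic acid precursor (log2 fold change 1.67 ± 0.21, adjusted p = 0.000427), whereas with library size alone 2 fell and 7 rose. The unfolded protein and amino acid stress list gave 5 lower and 3 higher of 24 (2 and 5 with library size alone), with TRIB3 (1.85) and SESN2 (1.34) higher and VLDLR (-1.65) and ASNS (-1.36) lower, heat shock 1 lower and 0 higher of 17 (HSP90B1, -1.05), and lysosome and autophagy 3 lower, GAA (-1.22), WIPI1 (-1.22) and LIPA (-1.19), and 1 higher of 27 (0 and 3 with library size alone). Of 17 clock genes 1 rose, BHLHE40 (log2 fold change 1.79 ± 0.25, adjusted p = 0.000646), and of 15 channel and transporter genes 2 rose, AQP1 and ATP1B1 (1.42), and 1 fell, SLC12A2 (-1.36). The share called was 5.88% for heat shock, 14.8% for lysosome and autophagy and 5.88% for clock genes. These shares were near or under the 11.6% of all tested genes.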
